A study of Mus musculus with 4 samples.

Results

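Aminoacyl-tRNA synthetases join each amino acid to its own tRNA, the step that gives the ribosome its charged tRNAs. Mammals keep mostly separate nuclear genes for the cytosolic and the mitochondrial enzymes, and the symbols of the mitochondrial ones end in 2; in mammals Gars and Kars are exceptions, each encoding both forms. Several cytosolic enzymes are held together in the multisynthetase complex, and the others work outside it. The enzymes fall into class I and class II by the fold of their catalytic site. IGF2BP2 binds mRNA and belongs to the readers of m6A, the methylated adenosine found within many mRNAs.

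The genes described here are 36 aminoacyl-tRNA synthetase genes given as a list of symbols, 20 cytosolic and 16 mitochondrial, out of 21951 protein-coding genes. All 36 were matched to 1 mouse gene each. RNA immunoprecipitation and sequencing was done for IGF2BP2 in BMDMs, macrophages that were derived in culture from mouse bone marrow, in 2 immunoprecipitation libraries, with 2 input libraries that were not analysed here. The labels give no strain, genotype, age or treatment, and do not say whether the libraries came from separate cultures or animals. For the antibody, 1 label field gives anti-IGF2BP2 and the protocol gives anti-Flag. A peak was counted for a gene when the authors named that gene for it on the sense strand.

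Each library has its own list of peaks, and each peak has a tag count, the number of sequenced tags the authors assigned to it. The lists held 15511 peaks with 189393 tags in replicate 1 and 22570 peaks with 324456 tags in replicate 2. No peak had fewer than 3 tags. The sequencing depth of the libraries is unknown, and the lists hold no input value and no enrichment, so binding by IGF2BP2 and abundance of the mRNA cannot be told apart in any value below. Of 8 macrophage marker genes, 4 had a peak in both libraries, with 2537 and 4331 tags summed over the 8; the markers Lyz2 and Cd14 had no peak. T cell markers had 3 and 0 tags, fibroblast markers 9 and 0, and B cell and neutrophil markers had no peak.

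Cytosolic synthetase mRNAs were found in these lists far more often than mitochondrial ones. All 20 cytosolic genes had a sense peak in at least 1 library, against 9 of 16 mitochondrial genes (56.2%) and 31.7% of all protein-coding genes. In both libraries a peak was found for 17 of 20 cytosolic genes and 3 of 16 mitochondrial genes, and for 17.0% of all protein-coding genes. Counting only peaks of at least 10 tags, these became 5 of 20, 0 of 16 and 6.20%. Replicate 1 held a peak for 17 cytosolic and 6 mitochondrial genes, against 22.0% of all protein-coding genes. Replicate 2 held a peak for 20 cytosolic and 6 mitochondrial genes, against 26.7% of all protein-coding genes. The cytosolic share was thus several times that of all protein-coding genes in each library and in both. The mitochondrial share, 37.5% in each library, was above that of all protein-coding genes, while for peaks in both libraries it was 18.8%, close to theirs. These shares are counts over genes of the same 2 libraries and carry no test.

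Summed and median tag counts were also higher for the cytosolic genes. The 20 cytosolic genes held 638 tags in 63 peaks in replicate 1 and 859 tags in 79 peaks in replicate 2. The 16 mitochondrial genes held 58 tags in 11 peaks and 137 tags in 21 peaks. Of these, Fars2 alone held 28 and 78 tags, mostly in peaks wholly in introns, and more over both libraries than most cytosolic genes. The median cytosolic gene had 25 and 31 tags, and the median mitochondrial gene and the median of all protein-coding genes had 0 in both libraries. Per kilobase of spliced transcript, counting only peaks that touch an exon, the median was 6.63 and 10.7 tags for cytosolic genes and 0 and 0 for mitochondrial genes. Transcript lengths were close: the median representative transcript was 2854.5 nt for cytosolic genes, 2868 nt for mitochondrial genes and 2568 nt for all protein-coding genes. Coding sequences were longer, with medians of 2076 nt for cytosolic genes, 1615.5 nt for mitochondrial genes and 1158 nt for all protein-coding genes. Together the 36 genes held 0.392% and 0.327% of all tags in sense peaks.

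**Figure D1:**
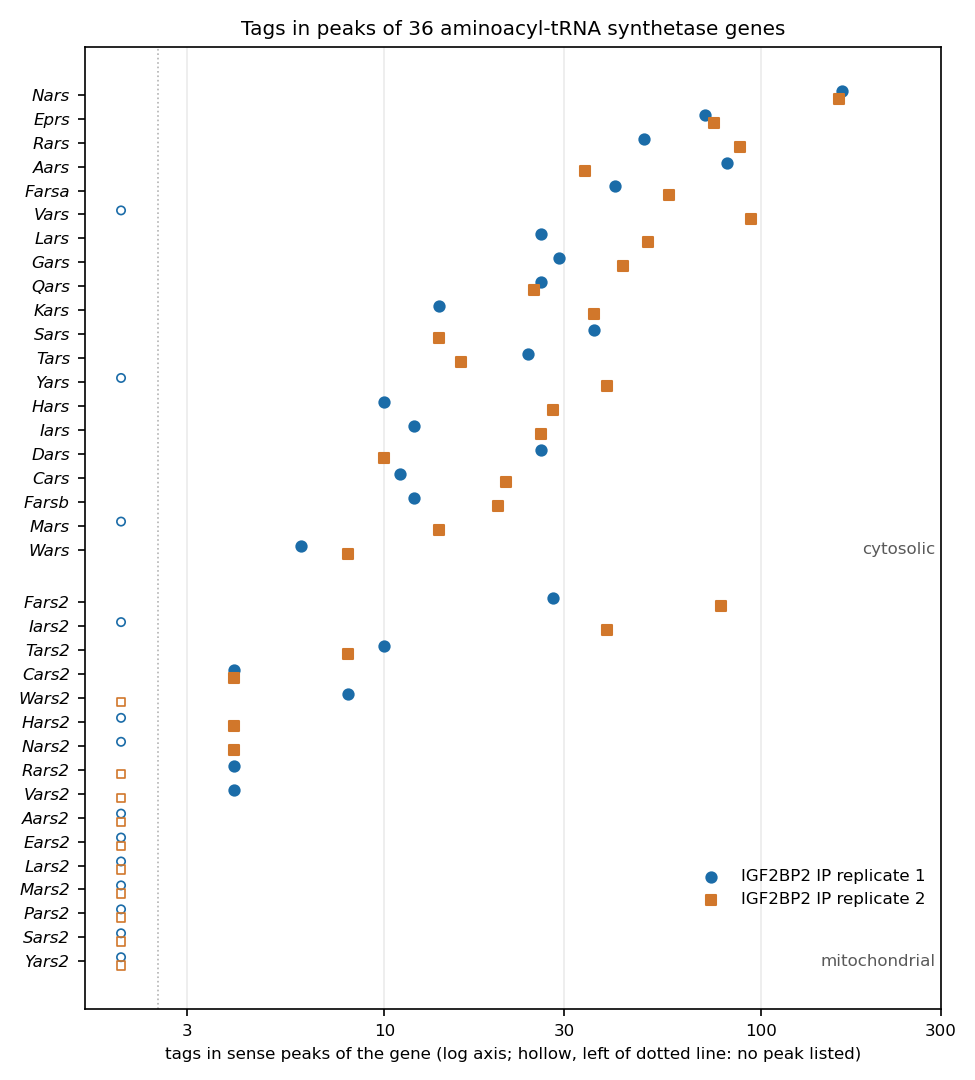
Tags in sense peaks of each of the 36 genes (log axis), with circles for replicate 1 and squares for replicate 2; hollow marks left of the dotted line stand for no listed peak. The cytosolic genes in the upper block reach from 6 to 164 tags where a peak was listed, and 7 of the 16 mitochondrial genes in the lower block have no peak in either library.

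The same stretch of RNA was found in both libraries for 13 of the 36 genes, 12 cytosolic and 1 mitochondrial, where a peak of replicate 1 and a peak of replicate 2 overlapped by at least 1 nt on the same strand. Of all protein-coding genes 9.07% had such a pair. The 13 genes held 32 pairs, of which 31 were cytosolic. In 7 of the 32 pairs (21.9%) both borders were the same to the nucleotide in the 2 libraries, against 11.1% of the 5064 pairs of all protein-coding genes. In all 7 of these pairs both borders were exon edges. At least 1 border was the same in 20 pairs (62.5%), against 41.9%. Pairs mainly coding in both libraries made up 75.0%, against 49.7% over all protein-coding genes. The part of exon edges and of the coding share in the matching borders was not tested. Summits of a pair lay a median of 21.5 nt apart, against 30 nt over all protein-coding genes. Peaks with a partner made up 47.6% and 38.0% of the cytosolic peaks, 9.09% and 4.76% of the mitochondrial peaks, and 37.0% and 25.4% of the peaks of all protein-coding genes.

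The following sequences show what such shared peaks look like: coding stretches within 1 exon that lay in a peak of both libraries and have a border at an exon edge. They are read from the transcripts of GENCODE release M21 on GRCm38, 5′ to 3′ in the sense of the mRNA. GGAC, the core of a common m6A site, is in capitals. The Aars peak, at chr8:111045527-111045671 on the plus strand, covered exon 11 of 21 from edge to edge, with 22 tags in replicate 1 and 25 in replicate 2.
Aars exon 11: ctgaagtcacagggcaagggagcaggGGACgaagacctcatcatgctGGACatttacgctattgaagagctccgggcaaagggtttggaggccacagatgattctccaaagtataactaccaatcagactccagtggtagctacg
The Eprs peak, at chr1:185420127-185420287 on the plus strand, covered exon 29 of 32 from edge to edge with 8 tags in each library.
Eprs exon 29: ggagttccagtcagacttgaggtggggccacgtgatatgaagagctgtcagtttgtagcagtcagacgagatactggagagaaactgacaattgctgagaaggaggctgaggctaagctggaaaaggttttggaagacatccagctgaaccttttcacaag
The Tars peak, at chr15:11397181-11397261 on the minus strand, covered exon 2 of 19 from edge to edge with 4 and 6 tags.
Tars exon 2: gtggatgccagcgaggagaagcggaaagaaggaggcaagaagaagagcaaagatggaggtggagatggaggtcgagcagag
In Kars and Gars, peaks on both sides of an intron were found in both libraries, so that the paired stretches join end to end in the spliced mRNA. The Kars stretches, on the minus strand, were chr8:111998522-111998642 with 6 and 8 tags and chr8:111998290-111998375 with 8 tags in each library, and they met at coding bases 1246 and 1247.
Kars exon 9: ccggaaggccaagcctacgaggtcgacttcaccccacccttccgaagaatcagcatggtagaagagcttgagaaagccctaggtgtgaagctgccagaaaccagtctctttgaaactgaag
Kars exon 10: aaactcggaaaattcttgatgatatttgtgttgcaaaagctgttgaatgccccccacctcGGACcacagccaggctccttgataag
The Gars stretches, on the plus strand, were chr6:55053151-55053205 and chr6:55055750-55055863, each with 8 and 12 tags, and they met at coding bases 705 and 706.
Gars exon 6: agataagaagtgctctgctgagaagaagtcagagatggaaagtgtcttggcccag
Gars exon 7: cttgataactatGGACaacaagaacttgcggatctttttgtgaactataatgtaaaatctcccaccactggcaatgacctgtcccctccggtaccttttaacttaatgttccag
GGAC was present in 3 of these 7 stretches. They are chosen examples, and others that fit, as in Lars exons 5 and 14 and Nars exon 8, are not printed. The count therefore does not describe all such stretches.

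Among the 8 enzymes of the multisynthetase complex, 7 had a peak in both libraries and 5 had an overlapping pair, with 224 tags in replicate 1 and 324 in replicate 2. The 12 free cytosolic enzymes had a peak in both libraries in 10 cases and a pair in 7, with 414 and 535 tags. Over all protein-coding genes, 17.0% had a peak in both libraries and 9.07% had an overlapping pair. Per kilobase of transcript the median was 8.13 and 10.7 tags for the complex and 5.51 and 9.66 tags for the free enzymes. The share of genes listed in both libraries was 87.5% for the complex and 83.3% for the free enzymes, a difference of less than 1 gene.

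Eprs encodes the fused glutamyl- and prolyl-tRNA synthetase of the complex. It had 7 peaks in each library, with 71 tags in replicate 1 and 75 in replicate 2. Per kilobase this was 14.5 and 15.3 tags, above 85.7% and 80.0% of the genes with a peak on an exon. Taking for each peak the exon of its summit, here and for the genes below, its pairs lay in exons 2, 18 and 29, in the first and the last parts of the coding sequence as well as near its middle. At exon 18 the peaks chr1:185401597-185401668 with 17 tags and chr1:185401309-185401689 with 23 tags had summits 3 nt apart. The strongest Eprs peak of replicate 1, at exon 19 with 22 tags, had no partner.

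Rars, the arginine enzyme of the complex, had 5 peaks with 49 tags in replicate 1 and 6 peaks with 88 tags in replicate 2. It stood at 23.2 and 41.7 tags per kilobase of transcript, above 91.6% and 94.0% of the genes with a peak on an exon. All 3 pairs lay in the neighbouring exons 10, 11 and 12. The exon 11 pair, chr11:35816637-35816746 with 13 tags and chr11:35816548-35816746 with 23 tags, ended at the same exon edge and had summits 2 nt apart. The peaks without a partner were at exons 7 and 8 in replicate 1 and at exons 9, 14 and 15 in replicate 2, so the libraries differed around a shared core.

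Lars, the leucine enzyme, had 4 peaks with 26 tags in replicate 1 and 5 peaks with 50 tags in replicate 2. Its 3 pairs were at exons 5, 6 and 14, and those at exons 5 and 14 had the same borders in both libraries. Kars, the lysine enzyme, had 2 peaks with 14 tags in replicate 1 and 4 peaks with 36 tags in replicate 2. Both replicate 1 peaks, in exons 9 and 10 as printed above, had a partner, and the other replicate 2 peaks lay at exons 1 and 2. Dars, the aspartate enzyme, had 5 peaks with 26 tags and 2 peaks with 10 tags. Its only pair, chr1:128417172-128417336 and chr1:128416967-128417346 with 6 tags each, was at exon 1; the first was mainly 5′ UTR and the second mainly intron in the authors' annotation.

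The remaining enzymes of the complex had no overlapping pair. Qars, the glutamine enzyme, held nearly equal tags, 26 in 2 peaks of replicate 1 and 25 in 3 peaks of replicate 2, yet at different places: its peaks covered exons 21, 22 and 23 in replicate 1 and exons 6, 7 and 8 in replicate 2. Iars, the isoleucine enzyme, had 2 peaks with 12 tags and 3 peaks with 26 tags. A replicate 1 peak of Iars, at chr13:49684224-49684536 with 7 tags, lay in an intron over the annotated snoRNA gene Gm25394 of the same strand, so its tags cannot be given to the synthetase with certainty. Mars, the methionine enzyme, had no peak in replicate 1 and 2 peaks with 14 tags in replicate 2.

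Nars, the cytosolic asparagine enzyme, had the most tags of all 36 genes in each library, 164 in 9 peaks of replicate 1 and 161 in 8 peaks of replicate 2. Per kilobase of transcript it had 59.7 and 58.7 tags, above 97.8% and 96.1% of the genes with a peak on an exon. Of its peaks 7 in each library formed pairs, in exons 6, 7, 8, 11, 12, 13 and 14 of 15. Replicate 1 had further peaks at exons 9 and 10 and replicate 2 at exon 5, so that the peaks ran over most of the coding sequence. The strongest peak had 29 tags in each library, at exon 12 in replicate 1 and at exon 13 in replicate 2.

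Aars, the alanine enzyme, had 81 tags in 5 peaks of replicate 1 and 34 tags in 2 peaks of replicate 2. Its exon 11 peak, printed above, was the strongest in both libraries. The summit of that peak was on the same base in both, the edge of the exon. The other pair, at exon 13, had 11 and 9 tags. The replicate 1 peaks at exons 12, 14 and 18, with 19, 8 and 21 tags, had no partner. Aars was one of 6 cytosolic genes with fewer tags in replicate 2 than in replicate 1, although the replicate 2 list held 1.72 times the sense tags.

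Phenylalanyl-tRNA synthetase of the cytosol is made of an α subunit, encoded by Farsa, and a β subunit, encoded by Farsb. Farsa had 41 tags in 3 peaks of replicate 1 and 57 tags in 5 peaks of replicate 2, which is 22.5 and 31.2 tags per kilobase of transcript. All 3 replicate 1 peaks, at exons 3, 4 and 5, had partners, and they formed 4 pairs because 1 replicate 1 peak met 2 peaks of replicate 2. The exon 5 pair, chr8:84864058-84864150 with 14 tags and chr8:84864014-84864261 with 13 tags, had its summit on the same base, an exon edge. Farsb had 12 tags in 2 peaks of replicate 1 and 20 tags in 2 peaks of replicate 2, with no pair. Only 1 Farsb peak, at exon 15 in replicate 2 with 12 tags, touched an exon. The subunits of this enzyme thus differed in tags, in place and in recurrence; that difference carries no test.

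Gars, the glycine enzyme, had 4 peaks in each library, with 29 and 43 tags. Beside the exon 6 and 7 pairs printed above, replicate 1 had 2 intronic peaks and replicate 2 had peaks at exons 10 and 11. Tars, the threonine enzyme, had 24 tags in 4 peaks and 16 tags in 3 peaks, with pairs at the neighbouring exons 1 and 2. Hars, the histidine enzyme, had 10 tags in 2 peaks and 28 tags in 3 peaks, with a pair at exon 3. A further Hars peak in replicate 2, at exon 1 with 9 tags, overlapped the start of Hars2, which is read from the opposite strand. Cars, the cysteine enzyme, had 11 tags in 1 peak and 21 tags in 3 peaks, with its pair at exon 7, chr7:143584547-143584797 and chr7:143584585-143584797.

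The 5 free cytosolic enzymes without a pair were Farsb, Sars, Vars, Wars and Yars. Vars, the valine enzyme, had no peak in replicate 1 and 8 peaks with 94 tags in replicate 2, more there than any other of the 36 genes except Nars. All 8 Vars peaks were mainly coding, at exons 2 to 29 of 30, the strongest of them chr17:35010838-35010919 with 18 tags. Yars, the tyrosine enzyme, likewise had no sense peak in replicate 1 and 5 mainly coding peaks with 39 tags in replicate 2. Sars, the serine enzyme, had 36 tags in 5 peaks of replicate 1 and 14 tags in 2 peaks of replicate 2, at different exons. Wars, the tryptophan enzyme, had 6 tags in 1 peak and 8 tags in 2 peaks, the fewest of the cytosolic genes over both libraries together with Mars. With 2 libraries and an unknown depth, an unlisted gene in replicate 1 was not shown to be absent from it.

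**Figure D2:**
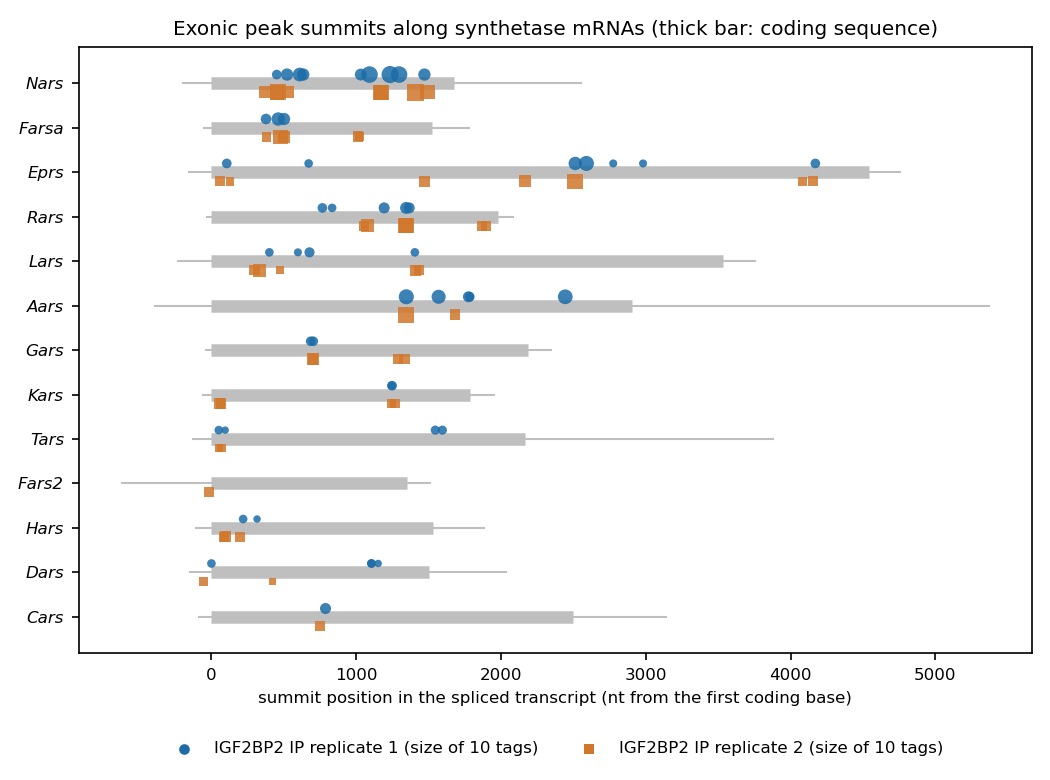
Summits of peaks that lie on an exon, along the spliced representative transcript of the 13 genes with an overlapping pair, in nt from the first coding base; thick bars are coding sequence, thin lines the untranslated regions, and mark area grows with tags. Summits spread along the coding bars, as in Nars with 17 peaks over both libraries, and none of the summits shown lies to the right of a thick bar.

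Fars2, the mitochondrial phenylalanine enzyme, was the exception among the mitochondrial genes, and its peaks were of another kind. It had 28 tags in 4 peaks of replicate 1 and 78 tags in 12 peaks of replicate 2. All 4 peaks of replicate 1 and 11 of the 12 of replicate 2 lay wholly in introns of a gene that spans 608869 nt, the longest span of the 36. Each held few tags, 5 to 10 in replicate 1 and 6 to 8 in replicate 2. Its only pair was intronic, chr13:36463226-36463898 with 10 tags and chr13:36463499-36463758 with 7 tags, with summits 40 nt apart. The 1 peak on an exon, chr13:36204509-36204733 with 8 tags in replicate 2, began at the edge of exon 2. Its summit was at base 602 of the transcript, just before the first coding base at 616.

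The other mitochondrial genes held few tags. Tars2, for threonine, had 10 tags in 2 peaks of replicate 1 and 8 tags in 1 peak of replicate 2, and Cars2, for cysteine, had 4 tags in 1 peak of each; neither had an overlapping pair. Iars2, for isoleucine, had no peak in replicate 1 and 39 tags in 5 peaks of replicate 2, of which 4 lay at the neighbouring exons 13, 14, 15 and 16. In replicate 1 alone, Wars2 had 2 peaks with 8 tags, and Rars2 and Vars2 had 1 peak with 4 tags each. In replicate 2 alone, Hars2 and Nars2 had 1 peak with 4 tags each. Aars2, Ears2, Lars2, Mars2, Pars2, Sars2 and Yars2 had no sense peak.

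By the region covering most of each peak in the authors' annotation, cytosolic synthetase peaks were mainly coding. Coding sequence was the main region of 52 of 63 cytosolic peaks in replicate 1 (82.5%, exact binomial 95% interval 70.9 to 90.9) and 62 of 79 in replicate 2 (78.5%, 67.8 to 86.9). For mitochondrial genes the counts were 5 of 11 (45.5%, 16.7 to 76.6) and 6 of 21 (28.6%, 11.3 to 52.2). Over all protein-coding genes the shares were 47.5% and 45.1%. The cytosolic intervals lay above these shares in both libraries. Coding sequence also made up more of these mRNAs, with median coding and transcript lengths of 2076 and 2854.5 nt for cytosolic genes. Over all protein-coding genes these medians were 1158 and 2568 nt. The part of this make-up in the coding shares was not tested. The mitochondrial share rests largely on Fars2: without it, 5 of 7 peaks (71.4%) and 5 of 9 peaks (55.6%) were mainly coding. With Fars2 kept and only peaks of at least 6 tags, the mitochondrial share was 25.0% in each library. That setting dropped 7 of the 11 peaks in replicate 1 and 5 of the 21 in replicate 2. Without Nars the cytosolic shares were 83.3% and 77.5%. Intervals cover counting error only, and peaks of 1 gene share their source.

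Few synthetase peaks were mainly in untranslated regions. The 3′ UTR was the main region of 0 of 74 peaks of the 36 genes in replicate 1 (exact binomial 95% upper bound 4.86%) and 2 of 100 in replicate 2 (2.0%, 0.243 to 7.04), namely 1 peak of Wars and 1 of Tars2. Over all protein-coding genes it was 12.6% and 11.9%. The 3′ UTR of the representative transcript was short in several cytosolic genes, such as 67 nt in Vars and 73 nt in Mars. It was long in others, such as 2460 nt in Aars. The part of 3′ UTR length in these shares was not tested. The 5′ UTR was the main region of 1 peak in each library, of Dars in replicate 1 and of Tars in replicate 2. Peaks wholly in introns made up 9.52% and 6.33% of the cytosolic peaks, 54.5% and 61.9% of the mitochondrial peaks, and 29.2% and 30.3% of the peaks of all protein-coding genes. Without Fars2 the mitochondrial shares were 28.6% and 22.2%.

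**Figure D3:**
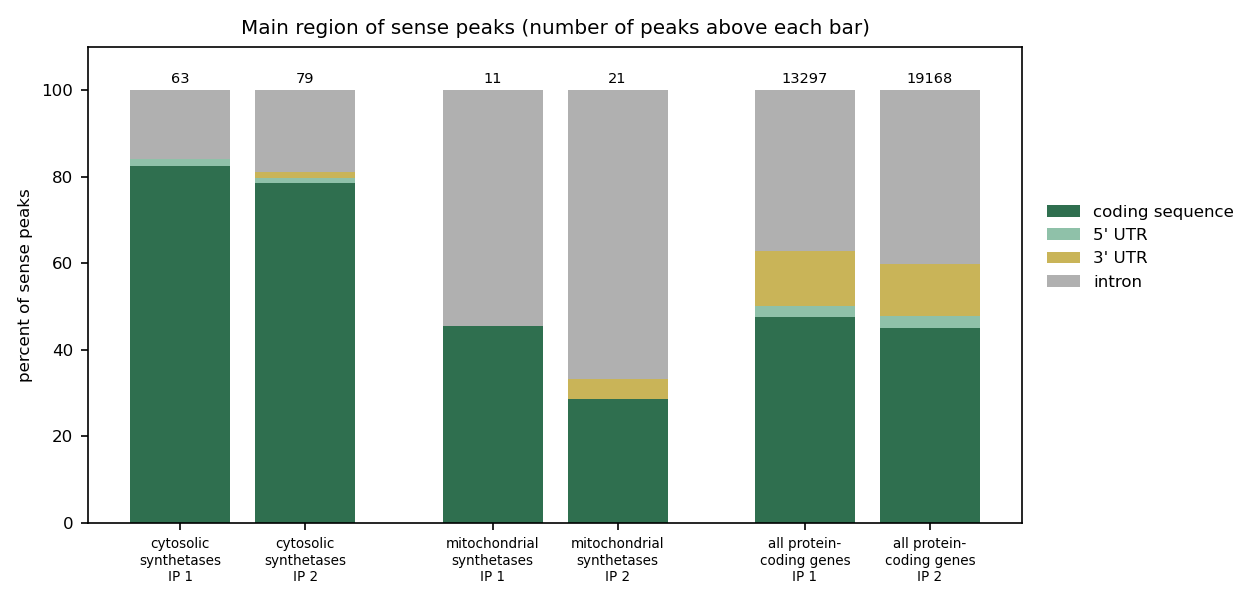
Main region of the sense peaks of cytosolic synthetases, mitochondrial synthetases and all protein-coding genes in each immunoprecipitation library (IP 1 and IP 2), as percent of the peaks counted above each bar; for all protein-coding genes 3 peaks per library in non-coding exons are not drawn. Coding sequence takes 82.5% and 78.5% of the cytosolic bars and 47.5% and 45.1% of the bars of all protein-coding genes.

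**Figure D4:**
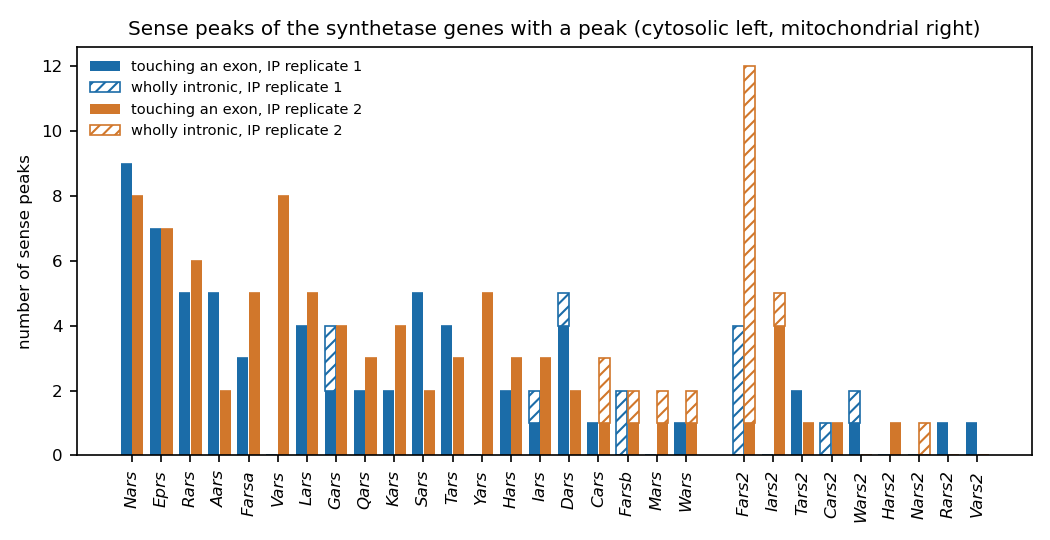
Number of sense peaks of each of the 29 genes with a peak, filled where the peak touches an exon and hatched where it lies wholly in an intron, with replicate 1 left of replicate 2. Fars2 holds 4 and 11 wholly intronic peaks, and no other gene holds more than 2 in a library.

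Within the coding sequence the summits were spread over its whole length. With the coding sequence cut into 3 equal parts, the first, middle and last part held 36.8%, 28.1% and 35.1% of the cytosolic summits in replicate 1, and 45.1%, 29.6% and 25.4% in replicate 2. Over all protein-coding genes the shares were 35.0%, 36.1% and 28.9% in replicate 1 and 35.1%, 35.6% and 29.3% in replicate 2. The order of the middle and last parts differed between the libraries for the synthetases.

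Many of these peaks stopped where an exon stopped. A border of the peak was an exon edge in 84.1% and 69.6% of the cytosolic peaks, 36.4% and 28.6% of the mitochondrial peaks, and 43.0% and 42.4% of the peaks of all protein-coding genes. The low mitochondrial shares rest on Fars2: without it they were 57.1% (4 of 7 peaks) and 55.6% (5 of 9 peaks). Among peaks wholly in coding sequence the share was high in every group: 42 of 42 and 39 of 40 for the 36 genes, against 88.2% and 89.4% over all protein-coding genes. Synthetase peaks within 1 exon had a median length of 114 and 108 nt, against 146 and 151 nt over all protein-coding genes.

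The motif GGAC, sought on the sense strand in the peaks that lie within 1 exon, was present in 31.1% (18.2 to 46.6) and 40.0% (25.7 to 55.7) of 45 synthetase peaks in each library. Over all protein-coding genes it was present in 51.8% and 51.6%. Per kilobase of peak sequence, GGAC occurred 3.19 and 6.05 times in the synthetases and 4.84 and 4.72 times over all protein-coding genes. The synthetase peaks were shorter than the others, and per kilobase they lay below all protein-coding genes in replicate 1 and above them in replicate 2. A match is not a measured m6A site.

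By catalytic class, 12 of 17 class II genes and 7 of 18 class I genes had a peak in both libraries, against 17.0% of all protein-coding genes; Eprs, which joins both classes, was left out. Class II genes held 475 and 513 tags, and class I genes held 150 and 408 tags. The class I tags of the libraries differ largely through Vars, Yars and Iars2, whose peaks were all in replicate 2. Class and compartment overlap in these lists, and their parts in these counts were not tested.

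Genes that work beside the synthetases were read against the same 17.0% of all protein-coding genes with a peak in both libraries. The scaffold proteins of the multisynthetase complex, Aimp1, Aimp2 and Eef1e1, had a peak in both libraries in 0 of 3 cases. Aimp1 had 8 and 0 tags, and Eef1e1 had 0 and 4 tags, the latter in a peak that touches no exon. Of 4 genes of eEF1, the factor that brings charged tRNA to the ribosome and recycles itself, only Eef1a1 had peaks in both, with 62 and 118 tags. Of 6 genes for mitochondrial charging, initiation and elongation, 2 had peaks in both, Gatb and Mtif2. Gatb, a subunit of the amidotransferase that makes mitochondrial glutaminyl-tRNA, had 5 and 13 tags, all in peaks that touch no exon. The initiation factor gene Mtif2 had 5 tags in each.

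In the amino acid response, uncharged tRNA activates a kinase that raises translation of the transcription factor ATF4, whose targets in mammals include many cytosolic synthetase genes and amino acid transporters. Of 14 genes listed for it, 12 were matched, and 6 of the 12 had a peak in both libraries, against 17.0% of all protein-coding genes. Slc3a2, the heavy chain of amino acid exchangers, had 241 and 211 tags in 7 peaks of each library, more than any synthetase. Atf4 itself had 24 and 73 tags. The transporter gene Slc38a2 had 24 and 21 tags. Psat1, an enzyme of serine synthesis, had 12 and 13 tags, those of replicate 2 all in peaks that touch no exon. The transporter gene Slc7a5 had 24 and 12 tags, tied with Psat1 by the smaller count.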

How the data were processed

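Titles of the samples gave the group and the replicate number. The submitters' processing notes name bcl2fastq, TopHat2 and the build GRCm38. How peaks were called, and whether the input entered the calling, is not given in the sources used here. According to the columns, per the file headers, the authors deposited for each peak a tag count, a maximum height (a coverage signal), a length, a summit, region shares and a gene identifier. Deposited starts and summits were found to be 0-based: among wholly coding peaks the start plus 1 was an exon start in 66.8% and 69.9%, and the start as deposited in 0.223% and 0.390%. Both were therefore shifted by 1. Region is the one covering most of a peak. Exons, spans and sequences are from GENCODE release M21, with 1 representative transcript per gene (APPRIS principal, then longest coding sequence). Exon edges and exon starts matched to peak borders are those of any annotated transcript of the gene. Regions without a genome sequence, such as introns, were not searched for motifs. Python 3.11.15, pandas 2.3.3, numpy 2.4.6, scipy 1.17.1 and matplotlib 3.10.9 were used. The overlap step was checked on simulated peaks, and the region step on a few fixed examples. No test between groups was made: 1 group has files here, and genes and peaks are not replicates. Exact intervals are Clopper-Pearson at 95% and cover counting error only. Described in full are genes with an overlapping pair and the 6 with the most tags. At most 4 genes per neighbouring pathway list are named for peaks in both libraries, with a tie kept. The members and all gene lists were chosen with earlier results of these data known.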

Additional observations from a re-analysis of the deposited data

Results flagged for a closer look

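Peaks on the strand opposite to Yars appeared outside the sense measurement. In replicate 1 there was 1 such peak with 4 tags, chr4:129218385-129218620, and in replicate 2 there were 3 with 12 tags in all. A replicate 2 peak, chr4:129218394-129218562, overlapped that of replicate 1. Another, chr4:129216600-129216722, faced a sense Yars peak of the same library, chr4:129216646-129216882 with 7 tags. No gene is annotated on that strand there. Replicate 1 listed no sense peak for Yars.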

How the results depend on the processing

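Of 65 alternative values, 16 moved: counts by over 1.5 times, shares beyond the 95% interval of the reported share. The interval of the mitochondrial coding share in replicate 1 is wide, so that 25.0% with peaks of at least 6 tags and 71.4% without Fars2 lay within it, against 45.5% reported. With peaks of at least 10 tags, 5 genes had a peak in both libraries (5 cytosolic, 0 mitochondrial) and 5 had an overlapping pair (5 and 0). For mitochondrial genes the 3 with a peak in both libraries became 1 with mainly exonic peaks, 1 with peaks that touch an exon and 6 in either library alone; the 1 with a pair became 0 when 50% of both peaks had to overlap. The share of sense tags became 0.471% and 0.421% with maximum height in place of tags, and 0.474% and 0.412% with mainly exonic peaks. Without Fars2, 55.6% of mitochondrial replicate 2 peaks were mainly coding. Leaving out a library gave 23 to 26 genes with a peak, 17 to 20 of them cytosolic and 6 mitochondrial each time. The alternatives that leave out Fars2 or Nars, keep peaks touching an exon or read starts as deposited were added after seeing the data. The causes were not tested. No paired analysis was possible because the input libraries were not analysed here and no test was made.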
